A study of Ginkgo biloba with 9 samples.

Results

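In autumn leaves of Ginkgo biloba, 49 of 43834 gene models had risen by the turning stage and then kept a similar mean level into the yellow stage. They were chosen from the measured values of all 9 libraries. A normalized count is the read count of a model divided by the size factor of its library, and it is not corrected for transcript length. A member had at least 135 normalized counts in every turning library, and its lowest turning library held at least 2 times the count of its highest green library. The mean of the yellow libraries divided by that of the turning libraries lay between 0.75 and 1.33. Models among the 100 highest of green or of yellow leaves were left out, which removed 1 model that met every other condition. Because these values made the choice, the rise and the level course below are descriptions and not findings.

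Autumn senescence of a leaf is an ordered programme in which chloroplasts are dismantled, chlorophyll is broken down and nitrogen and other nutrients are moved to the stem before the leaf falls. Yellow colour appears as carotenoids are unmasked. Genes that are switched on during this programme can be needed early, late or throughout. The course of a transcript over the season gives its RNA level at each date and does not show when the gene is needed. Ginkgo is a deciduous gymnosperm with fan-shaped leaves that turn a uniform yellow.

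The leaves were taken outdoors from 3 healthy adult trees growing under natural conditions, with no treatment, and the ages of the trees are not given in the labels. The green group (mature stage) was sampled on September 12, the turning group on October 26 and the yellow group (senescence stage) on November 8, so the intervals lasted 44 and 13 days. Each group has 3 libraries, numbered 1 to 3 in the labels, which do not say whether a number marks a tree. P-values therefore measure the spread between libraries, and stage and sampling date cannot be told apart. Library totals ran from 23766331 to 32319325 counts. The identifiers are not paired with gene names in the sources used here, so no role is given to any member, and the leaf tissue was not checked against marker genes.

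Of the members, 45 have identifiers that begin with Gb_, and 4 have the other prefix of the table, as in Novel01032. The other prefix made up 8.16% of the members and 6.83% of the 23042 models tested. All 49 members passed the filter on low counts, which their turning libraries alone would have allowed. Members took 0.231%, 0.214% and 0.257% of the counts of green libraries 1, 2 and 3. They took 0.841%, 0.739% and 0.729% of the counts of the turning libraries and 0.558%, 0.539% and 0.568% of the counts of the yellow libraries. The share was thus higher in every turning library than in any yellow library, whereas the summed normalized counts overlapped, from 177233 to 211161 in turning and from 191439 to 209865 in yellow leaves. In bulk leaf RNA, a change in the mix of cells and a change in RNA per cell cannot be told apart.

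Shares and normalized counts differ by the scaling of the libraries. The size factors averaged 1.30 over the green, 1.16 over the turning and 0.691 over the yellow libraries, whereas yellow and green totals overlapped. With size factors the median yellow-to-turning ratio of the members was 1.07, and that of all tested models was 0.989. With library totals as the only scaling these medians were 0.738 and 0.682, and all 49 members had a ratio below 1. A level course is therefore level relative to the bulk of the tested models. With library totals 41 models met the rule, and 9 of them were among the 49.

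A further rise was the most common course after an early rise. Outside the 100 highest models of either stage, 346 models met the conditions on the floor and on the first interval. Of these, 49 (14.2%) were level, 258 (74.6%) had a yellow-to-turning ratio above 1.33 and 39 (11.3%) a ratio below 0.75. Among all 11820 tested models with the floor in every turning library, 4345 other than the members had a ratio from 0.75 to 1.33. With library totals as the only scaling, 225 models met the conditions on the floor and on the first interval. Of those, 41 were level, 135 rose further and 49 fell later. Without green library 3, 622 models met these conditions, of which 95 were level, 442 rose further and 85 fell later, and without turning library 3 the later falling models numbered 65. Median turning-to-green ratios were 4.004 in the level, 4.21 in the further rising and 5.36 in the later falling models. In green leaves the median level was 484 normalized counts in the level models, 256 in the further rising and 261 in the later falling models. Identifiers with the prefix other than Gb_ made up 8.16%, 5.04% and 25.6% of these classes. The classes were formed from the same values, so no test was made between them.

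**Figure D1:**
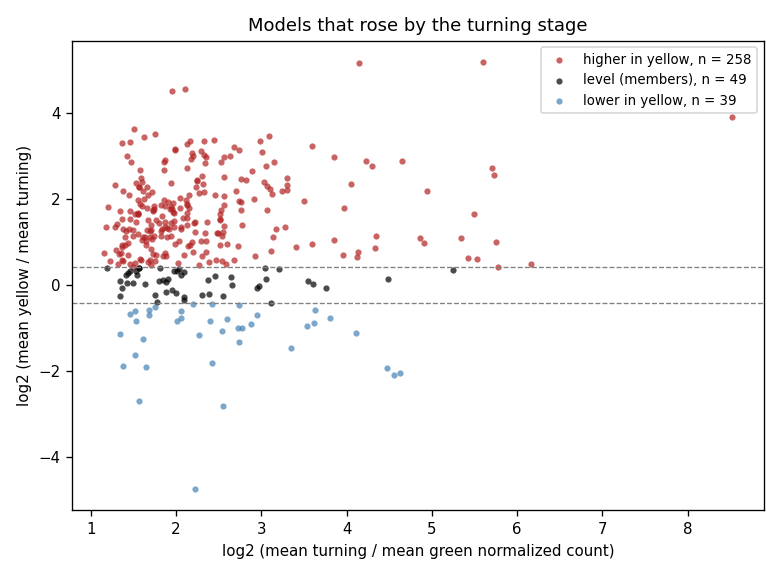
Each point is 1 of the 346 models that rose by the turning stage, with the log2 ratio of turning to green on the x axis and that of yellow to turning on the y axis. Dashed lines mark the window from 0.75 to 1.33 that holds the 49 members (black), below the 258 models that rose further and above the 39 that were lower in yellow leaves.

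The members nearest to each limit show how narrow the choice was. Gb_12255 met the floor with a lowest turning library of 139 normalized counts, and Gb_12662 missed it with 129. Novel01106 met the ratio of lowest turning to highest green library with 2.02, and Gb_11068 missed it with 1.996. At the ends of the yellow-to-turning window, Gb_23375 stood inside with 0.752 and Gb_04748 outside with 0.739. Gb_34055 stood inside with 1.32 and Gb_32330 outside with 1.333. With a minimum ratio of 1.5 in place of 2 for the first interval, 174 models met the rule, and with a ratio of 3, 13 models did.

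The rise from green to turning leaves ranged from 2.28-fold to 38.1-fold, with a median of 4.004 and quartiles of 2.97 and 6.25. It reached 4-fold in 25 members and 8-fold in 9 members. Within library numbers 1, 2 and 3 the median rises were 4.05-fold, 3.93-fold and 3.87-fold. All 49 members were called higher in turning leaves (edgeR quasi-likelihood test, with p adjusted by Benjamini-Hochberg at a threshold of 0.05), as were 11.8% of the models tested. With the library number as a block 48 members and 17.6% of all models were called, and Gb_35739 was lost (edgeR adjusted p = 0.0542). Every turning library was above every green library in the 49 members and in 22.0% of all models tested. The rule used this contrast, so nothing is read from these counts. In turning leaves the levels spread over a wide range, from 143 to 23073 mean normalized counts, and 38 members had a mean of at least 1000.

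**Figure D2:**
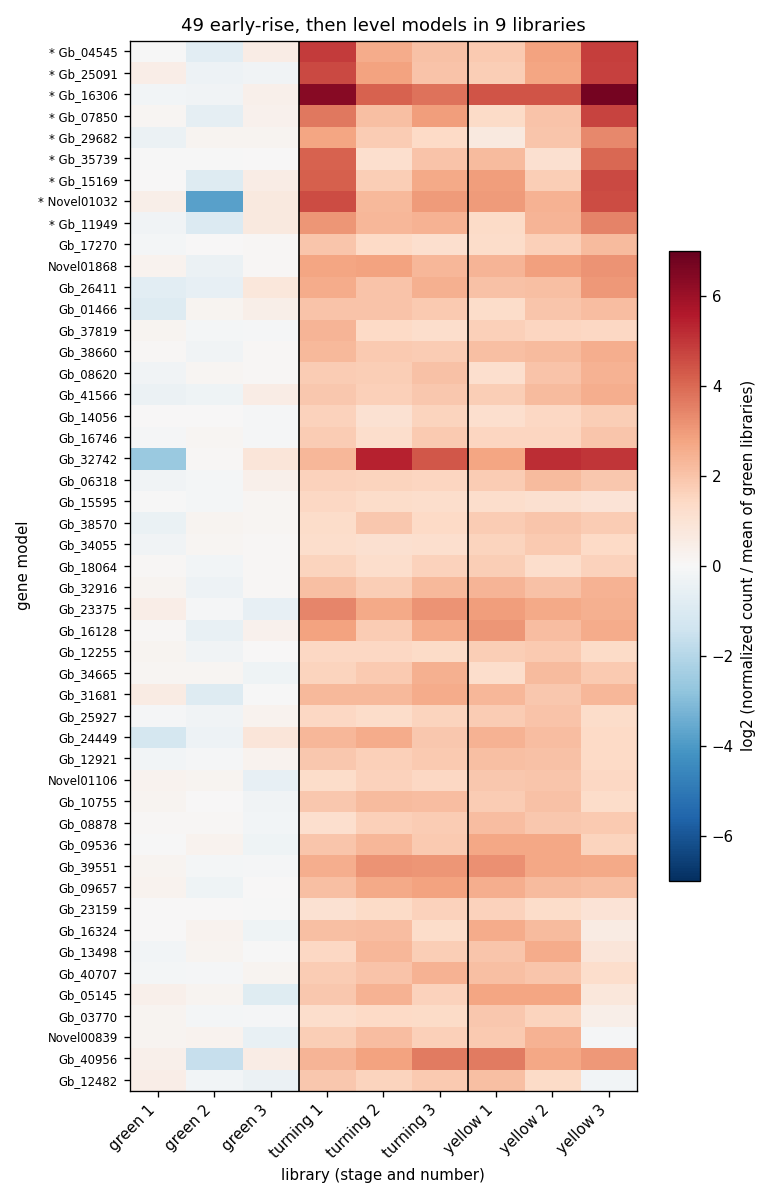
Rows are the 49 members and columns the 9 libraries, and the colour gives the log2 ratio of the normalized count to the mean of the green libraries. Rows are ordered by the yellow-to-turning ratio in library number 1 over that in number 3, so the 9 crossing members, marked with a star, stand at the top. From turning to yellow they fell to at most 0.5 in number 1 and rose to at least 2 times in number 3.

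The 6 members with the most normalized counts in turning leaves held 23073 to 7383 counts there. Gb_03770 had 10417, 8408 and 8572 normalized counts in green libraries 1 to 3, 21298, 24378 and 23542 in turning libraries, and 34217, 27110 and 11983 in yellow libraries. Its turning libraries lay close together, while yellow library 3 fell to just above the green range and yellow libraries 1 and 2 stood above every turning library. Its mean of 24437 ± 11356 in yellow leaves (SD, n = 3) was thus level with 23073 ± 1593 in turning leaves only on average. Its fitted log2 difference between yellow and turning leaves was 0.05 ± 0.33 (SE).

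Gb_09657 had 3667, 2456 and 3101 normalized counts in green, 13343, 19310 and 21345 in turning, and 17715, 14072 and 13073 in yellow libraries. Every turning and yellow library stood at more than 3 times the highest green library, and the turning and yellow libraries overlapped. The mean ratio of turning to green was 5.85, and the log2 difference of yellow from turning was -0.30 ± 0.23 (SE). Gb_37819 had 5254, 4302 and 4409 normalized counts in green, 24320, 12039 and 10851 in turning, and 14554, 13061 and 12625 in yellow libraries. Turning library 1 was about 2 times as high as the other turning libraries, and the yellow libraries were close to each other.

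Gb_41566 had 2958, 3272 and 5687 normalized counts in green, 14634, 12847 and 14491 in turning, and 13338, 18142 and 23566 in yellow libraries. Its yellow-to-turning ratio of 1.31 was near the upper limit, with yellow library 1 inside the turning range and the other yellow libraries above it. Gb_40707 had 1804, 1839 and 2261 normalized counts in green, 6717, 7908 and 10486 in turning, and 8622, 7585 and 4642 in yellow libraries. Yellow library 3 was the lowest of its yellow libraries although turning library 3 was the highest of its turning libraries. Gb_32916 had 2023, 1410 and 1884 normalized counts in green, 7557, 5935 and 8657 in turning, and 9293, 7388 and 9468 in yellow libraries. In each stage its library 2 was the lowest, a repeat of order that is tested below.

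**Figure D3:**
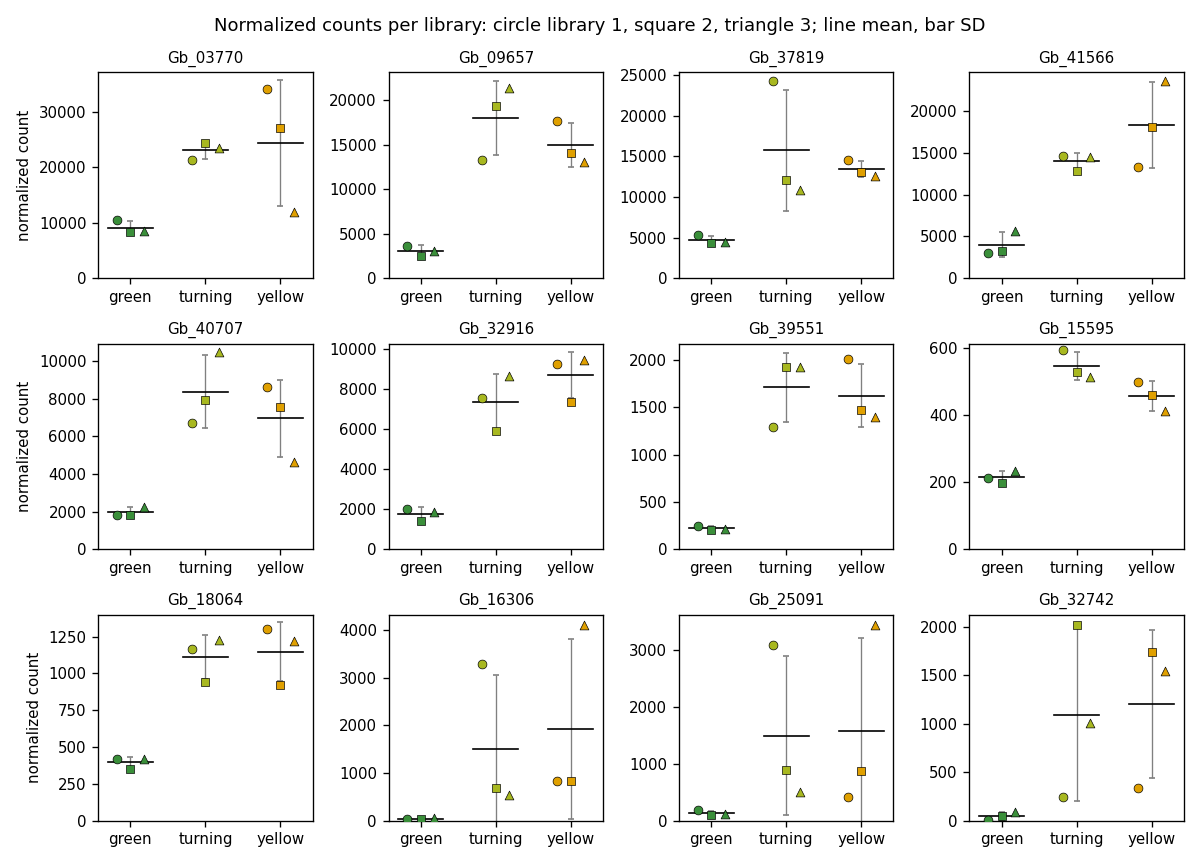
Normalized counts of 12 members in each library (y axis) by stage (x axis), with circles for library 1, squares for 2 and triangles for 3, black lines for means and grey bars for SD (n = 3; bars that would reach below 0 are cut at 0). Gb_39551 kept overlapping values in turning and yellow leaves. Those of Gb_15595 were close, with every yellow library below its turning libraries. Gb_16306 and Gb_25091 were highest in turning library 1 and yellow library 3.

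Among the members with the widest gap between the lowest turning and the highest green library, several started from few counts. Gb_16306 had the widest gap, a factor of 10.6, and rose from 34.3, 32.7 and 51.2 normalized counts in green libraries to 3287, 680 and 544 in turning and 825, 828 and 4113 in yellow libraries. The rise was present in every library, but the turning libraries differed 6.05-fold. Gb_39551, with a factor of 5.15, had 251, 203 and 212 normalized counts in green, 1293, 1928 and 1920 in turning, and 2005, 1473 and 1394 in yellow libraries. Here the turning and yellow libraries covered nearly the same range, and the mean ratio of turning to green was 7.72.

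Gb_23375 had 152, 102 and 73.8 normalized counts in green, 1162, 692 and 977 in turning, and 842, 677 and 610 in yellow libraries. It had risen 8.64-fold by the turning stage and stood at the lower end of the window afterwards, with overlap between turning and yellow libraries. Novel01868 had 129, 81.9 and 114 normalized counts in green, 725, 760 and 550 in turning, and 563, 787 and 950 in yellow libraries. Its mean was 6.25 times the green mean in turning leaves, and yellow libraries 2 and 3 lay above the turning range. Gb_40956 rose from 35.7, 9.10 and 39.9 normalized counts in green to 149, 197 and 356 in turning and 356, 187 and 227 in yellow libraries, with a log2 rise of 3.04 ± 0.57 (SE).

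The steadiest members after the rise were those with the lowest coefficient of variation over the 6 turning and yellow libraries. Gb_15595 had the lowest, 12.4%, with 214, 198 and 235 normalized counts in green, 594, 529 and 514 in turning, and 498, 460 and 412 in yellow libraries. Its yellow libraries all lay below its turning libraries, but the log2 difference of -0.29 ± 0.15 (SE) did not pass the test (edgeR adjusted p = 0.147). Gb_18064 had 419, 349 and 416 normalized counts in green, 1167, 943 and 1225 in turning, and 1303, 919 and 1218 in yellow libraries, with a log2 difference of 0.01 ± 0.17 (SE). Its turning and yellow libraries covered nearly the same range, and library 2 was the lowest in each stage.

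Gb_12255 had 61.9, 44.6 and 55.0 normalized counts in green, 146, 145 and 139 in turning, and 178, 194 and 135 in yellow libraries. It held the fewest counts of all members in turning leaves and the coefficient of variation was 15.4%. Gb_31681 had 73.3, 26.4 and 48.9 normalized counts in green, 241, 238 and 300 in turning, and 251, 182 and 246 in yellow libraries, with a coefficient of variation of 15.5%. Both kept overlapping turning and yellow libraries. The coefficient of variation over all members ranged up to 94.0%, with a median of 27.0%.

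A level mean did not imply a level course in each library number. The labels do not state that numbers mark trees, but libraries with the same number deviated together from their stage means, so yellow and turning libraries were also compared within numbers. In 40 of 49 members the yellow library was higher than the turning library in some numbers and lower in others. In 9 members the direction was the same in all 3 numbers, higher in 6 and lower in 3. Mixed directions are common in models selected for a level mean: they were found for 59.3% of the other 4345 tested models inside the window that held the floor in every turning library. A yellow-to-turning difference of at least 2-fold in some number was found for 13 members, and 36 members (73.5%) stayed within 2-fold in every number, against 94.7% of those other models. All of the wide differences were in numbers 1 and 3, with 10 and 12 members, and none in number 2.

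The wide differences followed a single pattern in 9 members: Gb_04545, Gb_25091, Gb_16306, Gb_07850, Gb_29682, Gb_35739, Gb_15169, Novel01032 and Gb_11949. They were grouped after their values were seen, so the group gets no test. In each of them turning library 1 was the highest turning library and yellow library 3 the highest yellow library, with a fall to at most 0.5 from turning to yellow in number 1 and a rise to at least 2 times in number 3. This crossing was seen in 18.4% of the members, in 13 of the 258 further rising models, in 1 of the 39 later falling models and in 0.783% of the other 4345 level models. Without the 2-fold limits, turning library 1 and yellow library 3 were both highest in 14 members (28.6%). The same held for 22.9% of the further rising, 30.8% of the later falling and 13.4% of the other 4345 models. That order of libraries was thus not particular to the members. The opposite crossing, a rise in number 1 with a fall in number 3, was seen in none of the 49 members and in 0.207% of those 4345 models. At so small a share few or none would be seen among 49 models, so nothing is read from its absence. Those 4345 models held 34 with the first crossing and 9 with the opposite one. A level mean requires that a large fall in 1 number is balanced elsewhere, so the presence of crossing is in part set by the rule.

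**Figure D4:**
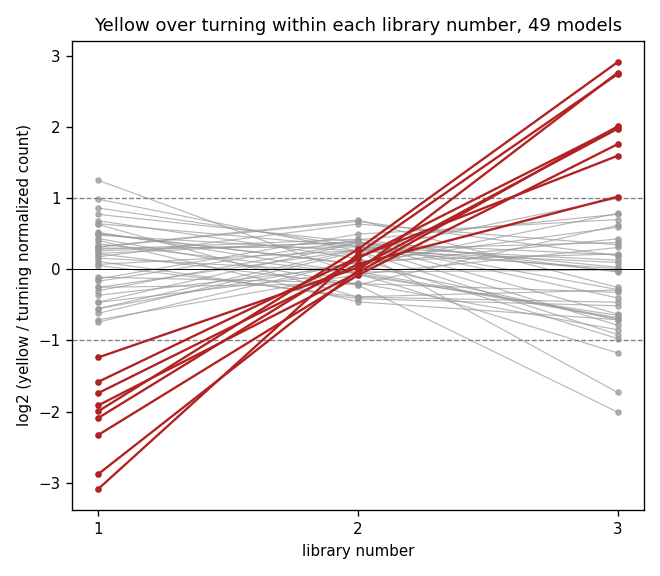
Each line is 1 of the 49 members and gives the log2 ratio of yellow to turning normalized counts (y axis) within library numbers 1, 2 and 3 (x axis), with dashed lines at 2-fold. The 9 crossing members (red) fell in number 1, stayed near 0 in number 2 and rose in number 3, whereas no other member (grey) rose by 2-fold in number 3.

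Single members show the size of the crossing. Gb_04545 had 369, 226 and 552 normalized counts in green, 11553, 2347 and 1601 in turning, and 1358, 2741 and 10777 in yellow libraries. Turning library 1 stood at 5.85 times the mean of the other turning libraries and yellow library 3 at 5.26 times the mean of the other yellow libraries. Gb_25091 had 176, 98.2 and 106 normalized counts in green, 3083, 882 and 504 in turning, and 419, 872 and 3436 in yellow libraries. Its yellow libraries differed 8.20-fold, and library 2 was level at 882 and 872.

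Gb_07850 had the largest range among yellow libraries, 10.3-fold, with 538, 315 and 600 normalized counts in green, 6178, 2064 and 3725 in turning, and 1230, 1954 and 12651 in yellow libraries. Yellow library 3 alone set its yellow mean of 5278 ± 6395 (SD, n = 3). Novel01032 had 281, 15.5 and 342 normalized counts in green, 5083, 1035 and 1666 in turning, and 1699, 1167 and 5050 in yellow libraries. Its green library 2 was also far below the other green libraries. Gb_35739 had 265, 263 and 274 normalized counts in green, 4606, 596 and 1084 in turning, and 1223, 578 and 4381 in yellow libraries, so a nearly uniform green level preceded the uneven rise.

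Gb_29682 had 1207, 1822 and 1833 normalized counts in green, 10945, 5536 and 4205 in turning, and 2572, 6171 and 16849 in yellow libraries. Gb_15169 had 57.2, 29.1 and 79.1 normalized counts in green, 995, 182 and 350 in turning, and 422, 185 and 1380 in yellow libraries. In both, the number 2 libraries of turning and yellow leaves were close, and over the 9 crossing members their ratio ran from 0.947 to 1.22. Gb_11949 had 568, 338 and 1085 normalized counts in green, 5606, 3331 and 3614 in turning, and 1679, 3507 and 7347 in yellow libraries, and its 2.03-fold rise in number 3 was the smallest of the 9.

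Without yellow library 3 the yellow-to-turning ratios of the 9 crossing members were 0.397 to 0.634, all below the window. Without turning library 1 they ran from 1.203 to 3.14, above the window except in Gb_11949, which had the 1.203 and met the rule without that library. Without both libraries they were 0.550 to 1.35. These members were called higher in turning than in green leaves, a contrast the rule used. Most of these calls were lost without some single libraries. Here edgeR called 2 of the 9 without turning 1 or green 3, 4 without turning 3, and 1 without green 1 or 2. Of the other 40 members it called 36 without turning 1 and 35 without green 3 or turning 3. It called 33 of them without green 1 and 32 without green 2. Without turning 2, yellow 1 or yellow 2 it called 7 of the 9, beside 34, 39 and 39 of the 40. Without yellow 3 all were called. Shares over all models in these fits are not given, so nothing is read from these counts. The coefficient of variation among yellow libraries had a median of 98.7% in these 9 and 24.98% in the other 40 members, and among turning libraries 84.3% and 19.9%. The 9 were picked for a high turning library 1 and a high yellow library 3. The ratios without these libraries and the coefficients of variation follow in large part from that choice. Across all tested models, the deviations of turning library 1 and yellow library 3 from their stage means had a correlation of r = 0.03. That was the highest of the 18 pairs of libraries with different numbers, which ran from -0.52 to 0.03. Deviations within a stage sum to 0, which pulls the values between different numbers below 0, so 0 is not a neutral reference. This pair was singled out after the crossing was seen, and its relation to the crossing was not tested.

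At the other end of the order, yellow library 3 was low. Novel00839 had 600, 614 and 366 normalized counts in green, 1762, 2391 and 1673 in turning, and 1850, 2877 and 504 in yellow libraries. Gb_12482 had 521, 325 and 281 normalized counts in green, 1402, 1101 and 1348 in turning, and 1634, 944 and 335 in yellow libraries. In both, yellow library 3 lay inside the green range, and these 2 members, named after their values were seen, were the ones whose yellow libraries overlapped the green libraries. Gb_40956 was the only member with a rise of more than 2-fold in number 1, at 2.38 times. The yellow libraries were all above the green libraries in the other 47 members, and in 37 members the lowest yellow library was at least 2 times the highest green library. Across all tested models 33.0% had every yellow library above every green library, without the 2-fold limit. The share of all models at the 2-fold limit is not given. Both counts of members follow in large part from the rule, so nothing is read from them.

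Differences between library numbers that repeat in each stage were tested with a model of stage and number, a contrast the rule did not use. The rule does favour a small spread inside green and turning leaves, since it compares the lowest turning with the highest green library. The number was called for 2 members, or 4.08%, and for 6.80% of all models tested, by edgeR's F test at an adjusted p under 0.05. At an unadjusted p below 0.05 it was 12 members, or 24.5%, and 24.5% of all models. The members' share was therefore near the background. The called members were Gb_32742 and Gb_16128.

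Gb_32742 had 8.08, 51.8 and 86.6 normalized counts in green, 246, 2022 and 1006 in turning, and 333, 1742 and 1546 in yellow libraries. Library 1 was the lowest in every stage, by 2.67 on the log2 scale against number 2 and by 2.47 against number 3 (edgeR adjusted p = 0.0142). Within numbers 1, 2 and 3 the yellow-to-turning ratios were 1.35, 0.861 and 1.54, so only number 2 lay inside the window that the mean ratio met. Gb_16128 had 275, 178 and 325 normalized counts in green, 1840, 892 and 1550 in turning, and 2205, 1161 and 1583 in yellow libraries. Library 2 was the lowest in every stage, with a log2 difference of -0.87 from number 1 (edgeR adjusted p = 0.0392).

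The members with the next smallest p-values did not pass the test. Gb_05145 had 169, 154 and 73.8 normalized counts in green, 486, 716 and 400 in turning, and 885, 897 and 232 in yellow libraries (edgeR adjusted p = 0.0827). Its library 3 had the lowest value in every stage. For Gb_32916, described above, the adjusted p of the edgeR test was 0.105. DESeq2's likelihood ratio test called 7 members and 13.7% of all models it adjusted.

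In the comparison of yellow with turning leaves no member was called by edgeR in either direction, whereas 20.5% of all models tested were called higher and 21.0% lower. The rule bounded this difference, so the count is a description. At an unadjusted p below 0.05 in the edgeR test there was 1 member, or 2.04%, beside 50.5% of all models tested. This member, Gb_34055, had 1116, 1449 and 1433 normalized counts in green, 3117, 2944 and 3050 in turning, and 3872, 4706 and 3487 in yellow libraries. All of its yellow libraries lay above its turning libraries, and its log2 difference was 0.37 ± 0.16 (SE; edgeR adjusted p = 0.0883). The edgeR model with the library number as a block called no member and 50.9% of all models, and DESeq2 no member and 40.4%. The yellow mean was above the turning mean in 32 members and below it in 17. Turning and yellow libraries overlapped in 45 members. They did not overlap in 4, namely Gb_34055, Gb_08878 and Gb_06318 with yellow higher and Gb_15595 with yellow lower. Gb_06318 had 1713, 1859 and 2633 normalized counts in green, 6314, 6133 and 5975 in turning, and 7140, 9552 and 7591 in yellow libraries. Gb_08878 had 958, 957 and 776 in green, 2022, 2798 and 3125 in turning, and 4009, 3350 and 3152 in yellow libraries. Both stood close to the upper limit of the window, with ratios of 1.32. Across all tested models 25.8% had every yellow library above and 26.3% every yellow library below the turning libraries.

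A missing call does not show an equal level, and the intervals give what the data allow. The 95% interval of the log2 difference between yellow and turning leaves lay within 2-fold in either direction for 29 of the 49 members. That was 59.2% of the members, beside 27.3% of all models tested. The rule bounds the ratio of the means, so this count too is a description. All 29 were among the 40 members without crossing, and in the 9 crossing members every interval reached beyond 2-fold. The 9 were picked for wide differences between libraries, which widens their intervals. For Gb_25091 the interval ran from -1.87 to 1.96, and for Gb_18064 from -0.38 to 0.40. In this fit of stage alone, a 2-fold change between turning and yellow leaves remained inside the interval for 20 members. With the library number as a block it remained for 13, the 9 crossing members and 4 others, and the intervals of 7 more members, Gb_32742 among them, lay within 2-fold.

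**Figure D5:**
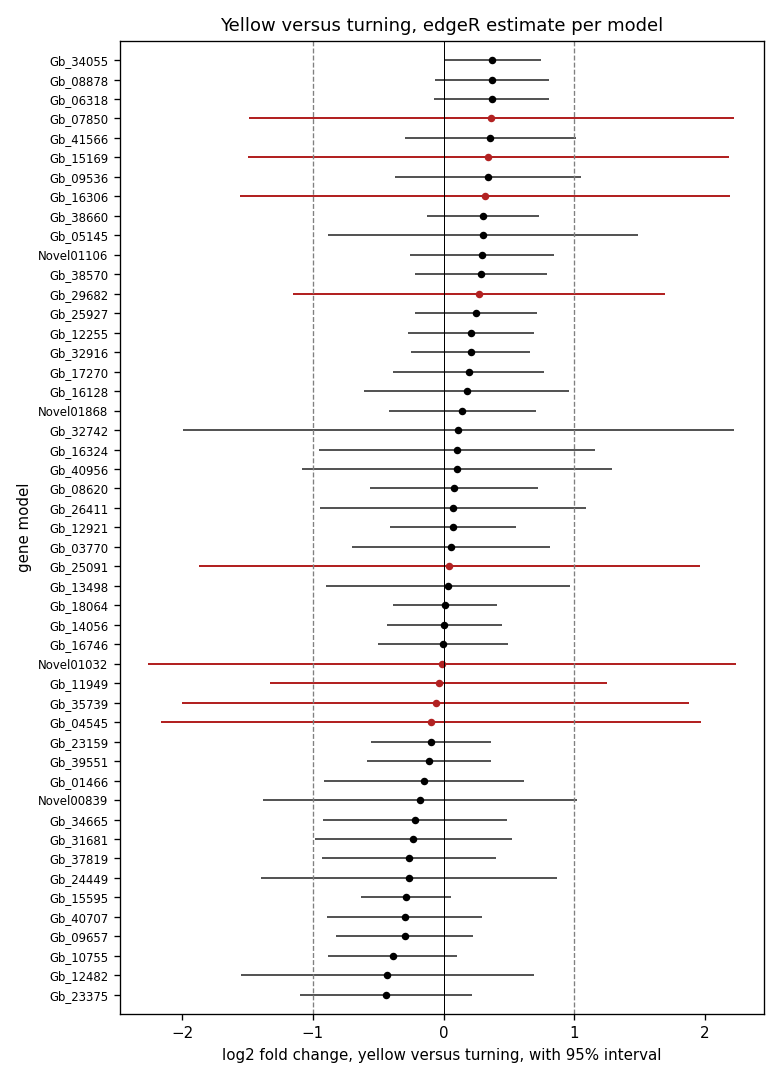
Points are the log2 fold changes of yellow versus turning leaves for the 49 members (x axis), with 95% intervals from the edgeR fit of stage alone as lines and the 9 crossing members in red. Dashed lines mark 2-fold, which the intervals of 29 members did not reach.

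Over the whole season the members stood 2.12-fold to 48.8-fold higher in yellow than in green leaves, with a median of 4.09-fold. All 49 were called higher by edgeR at the same threshold, as were 30.2% of all models tested, and this follows from the rule. The comparisons of turning with green and of yellow with green leaves share the green libraries. The median log2 fold change of the members was 2.01 in both, beside medians over all tested models of -0.02 and -0.06.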

How the data were processed

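The authors deposited a table of raw read counts per gene model, with 1 column for each of the 9 libraries. Per the submitters' processing notes, CASAVA 1.8, HISAT2 2.0.4 and also HTSeq 0.6.1 were used, with no role stated. The build, the annotation and the strand setting were not given in the sources used here, so models that overlap or share reads with near-identical copies carry that uncertainty. All libraries of a stage differed by more than sampling noise, with a chi-square per degree of freedom from 43.9 to 138 between any pair.

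Size factors were DESeq2 medians of ratios over the 9 libraries. Counts were fitted in R 4.3.3 with edgeR 4.0.16 (filterByExpr by stage, minimum count 10 and minimum total 15, TMM normalization, glmQLFit with robust = TRUE, glmQLFTest). The stage was the only term for stage comparisons, and stage and library number for the number test. Tests were two-sided and adjusted over all 23042 models. The tests of turning versus green and of the library number were also run on simulated counts. These had the same relative spread for every model and no background deviation shared by library number. They give no check of the yellow-versus-turning intervals. DESeq2 1.42.0 and other scalings, filters and left-out libraries were alternatives.

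Same-numbered libraries correlated in their deviations from stage means across genes (r from 0.24 to 0.66 in 9 pairs), and pairs with different numbers did so with r from -0.52 to 0.03. Deviations within a stage sum to 0, so the low values between different numbers follow in part from the high values within numbers. They are not separate evidence. The numbers were read as pairing the libraries, from the data and not from the labels.

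The members and lists were chosen with earlier results of these data known. Named members are the 6 with the highest mean in turning leaves, the 6 with the largest ratio of lowest turning to highest green library, the 4 with the lowest variation over turning and yellow libraries, the 2 with the largest range among yellow libraries, the 4 with the smallest p of the number test, and those nearest to each limit. Other members are named as chosen after their values were seen. Pathway and cell type name lists were not tested, since no names were at hand.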

Additional observations from a re-analysis of the deposited data

How the results depend on the processing

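The number of members depended on the limits: 174 with a first-interval ratio of 1.5, 13 with 3, 30 with a window of 1.2-fold and 76 with 1.5-fold. It was 45 to 95 with 1 library left out, the most without green 3 (95), turning 2 (89) and turning 3 (79), which by construction loosens the limits on lowest and highest libraries. In all 9 such lists 13 of the 49 members were kept. None of them was a crossing member, and the crossing members were picked for wide differences between libraries. TMM, upper-quartile and library-total scaling gave 49, 48 and 41 models, of which 47, 29 and 9 were shared with the 49. By alternatives added after the data were seen, the 346 early rising models became 915 with a ratio of 1.5, 118 with 3, 225 with library totals and 356 to 622 with 1 library left out. The further rising models became 649, 87, 135 and 256 to 442. The later falling models became 92 with a ratio of 1.5, 18 with 3 and 40 to 85 with 1 library left out.

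Calls of members as higher in turning leaves ranged from 33 to 49 with 1 library left out and were 42 without the filter on low counts. Calls in yellow versus green leaves ranged from 46 to 48 with 1 library left out. In yellow versus turning leaves, 9 members were called lower with library totals and 1 with upper-quartile factors, and with 1 library left out 0 to 1 were called higher, the 1 without yellow library 3. With library totals the members' median log2 fold change was -0.44 in yellow versus turning and 1.31 in yellow versus green leaves, and with upper-quartile factors 1.69 in the latter. Gb_18064 reversed to -0.49 in yellow versus turning leaves with library totals. Intervals within 2-fold were found for 17 members with library totals and 21 to 29 with 1 library left out. The shifts with the scaling follow from its construction, which moves all models together: with library totals the median yellow-to-turning ratio of all tested models was 0.682. Shares over all models in these alternative fits are not given here, except those stated above for the block and DESeq2. The counts of members and of intervals in the other fits are therefore descriptions and are not read as results about the members. The number test called 7 members with DESeq2 and 0 to 4 with 1 library left out: 4 without turning 1, 1 without green 2, green 3, turning 2 or yellow 1, and 0 without yellow 2. The cause was not tested. With the replicate block, 48 members were called in turning versus green leaves, no other call of members changed, and 36 in place of 29 intervals lay within 2-fold.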
